A study of Mus musculus with 8 samples.

Results

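Transcripts of 36 aminoacyl-tRNA synthetase genes were followed in lung endothelial cells of wild-type mice and of mice with a knockout of QPC. QPC is a subunit of complex III of the mitochondrial respiratory chain. The genes were taken by symbol from the 43430 gene IDs of the count table. The 16 symbols that end in 2 were placed with the enzymes of mitochondria, and the other 20 with the enzymes that work in the cytosol or in both compartments. All 36 were found in the table, and all 36 passed the filter on low counts. RNA came from C57BL/6 mice on postnatal day 15, with 4 wild-type (WT) and 4 knockout (KO) libraries. Tamoxifen, the drug that starts the deletion, was given on postnatal days 0 to 4, and the labels give the same treatment for both groups. Endothelial cells were sorted from the lung by flow cytometry on CD31, the surface protein encoded by Pecam1. The sources used here do not give the promoter that drove the recombinase or say whether WT mice carried it. The labels do not tie libraries to separate animals, and p-values therefore describe the spread among these libraries, part of which may be technical.

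Aminoacyl-tRNA synthetases join each amino acid to its matching tRNA, the step that supplies both cytosolic and mitochondrial ribosomes. Most amino acids have separate nuclear genes for the cytosolic and the mitochondrial enzyme, while Gars and Kars each encode both forms of the glycine and the lysine enzyme. The mitochondrial enzymes charge the tRNAs that read the mitochondrial genome, which encodes subunits of the respiratory chain, complex III among them. Many cytosolic synthetase genes are known targets of ATF4, a transcription factor of the integrated stress response that binds the C/EBP-ATF response element.

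Total counts were 6407924 to 13981329 per library. QPC was taken to be the product of Uqcrq, since RefSeq lists Qpc among its older names. Uqcrq was at 24.5 to 31.5 CPM (counts scaled to the library total, TMM-normalised) in WT and between 1.59 CPM (KO replicate 1) and 15.6 CPM in KO, with every KO library below every WT library. The KO mean was 37.3% of the WT mean (edgeR adjusted p = 0.179). RefSeq also gives the name QPC to Uqcrb, which was at 52.8 to 90.0 CPM in WT and 74.7 to 98.5 CPM in KO. The 8 endothelial markers summed to 13183 to 15470 CPM in WT and 11387 to 14801 CPM in KO. Of these 8, 2 (Tek and Erg) were lower in KO at an edgeR adjusted p below 0.05, as were 1.39% of all genes tested. Cdh5 did not pass (log2 fold change -0.36, edgeR adjusted p = 0.130), though every KO library lay below every WT library. The log2 fold change was above 0 for 4 of the 8. Markers of other lung cell types were present in both groups. The 8 markers of alveolar type 2 cells, which make surfactant, summed to 3805 to 21996 CPM in WT and 3644 to 16005 CPM in KO, the 8 leukocyte markers to 416 to 2021 CPM and 422 to 1502 CPM, the 8 mesenchymal markers to 288 to 1545 CPM and 286 to 1419 CPM, and the 5 red cell markers to 23.0 to 68.0 CPM and 28.5 to 72.3 CPM. Most of the leukocyte sum was Lyz2, at 374 to 1465 CPM in KO and 407 to 2000 CPM in WT, a gene that alveolar type 2 cells are also known to express. Ptprc, the pan-leukocyte marker CD45, was at 0 to 6.13 CPM in WT and 1.30 to 9.37 CPM in KO. Cd3e, a T cell marker, was at 0 in all 4 WT libraries and at 0 to 4.03 CPM in KO. The highest of this list after Lyz2 was Coro1a, at 0 to 40.8 CPM in WT and 3.91 to 12.8 CPM in KO. Laptm5 came next, at 0.863 to 13.9 CPM in WT and 0 to 22.8 CPM in KO. No marker of these 4 lists passed the test. In such sorted bulk samples fewer cells of a type and less RNA per cell cannot be told apart.

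Cytosolic synthetase genes rose in KO, and no mitochondrial one was called. Of the 20 cytosolic or dual genes, 12 were higher in KO and 0 lower at an adjusted p below 0.05 (quasi-likelihood test of edgeR, Benjamini-Hochberg adjusted over all 12689 genes tested). Without KO replicate 3 the count was 7. Across all genes tested, 2.25% were called higher and 1.39% lower, 3.63% in all. Among the 4495 genes whose mean CPM lay within the range of the cytosolic genes, 2.42% were called higher. The median log2 fold change of the 20 genes was 0.96, beside 0.01 for all genes tested, and 18 of the 20 values were above 0. Every KO library lay above every WT library for 14 of the 20, an arrangement found in 6.94% of all genes, and the opposite one was found for 0 of the 20 and in 4.67% of all genes. Of the 16 mitochondrial genes, 0 were called in either direction, 0 had an unadjusted p below 0.05, and their median log2 fold change was 0.19. Without WT replicate 2, 1 mitochondrial gene (Lars2) was called lower. DESeq2 also called 0 of the 13 mitochondrial genes for which it gave an adjusted p.

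**Figure D1:**
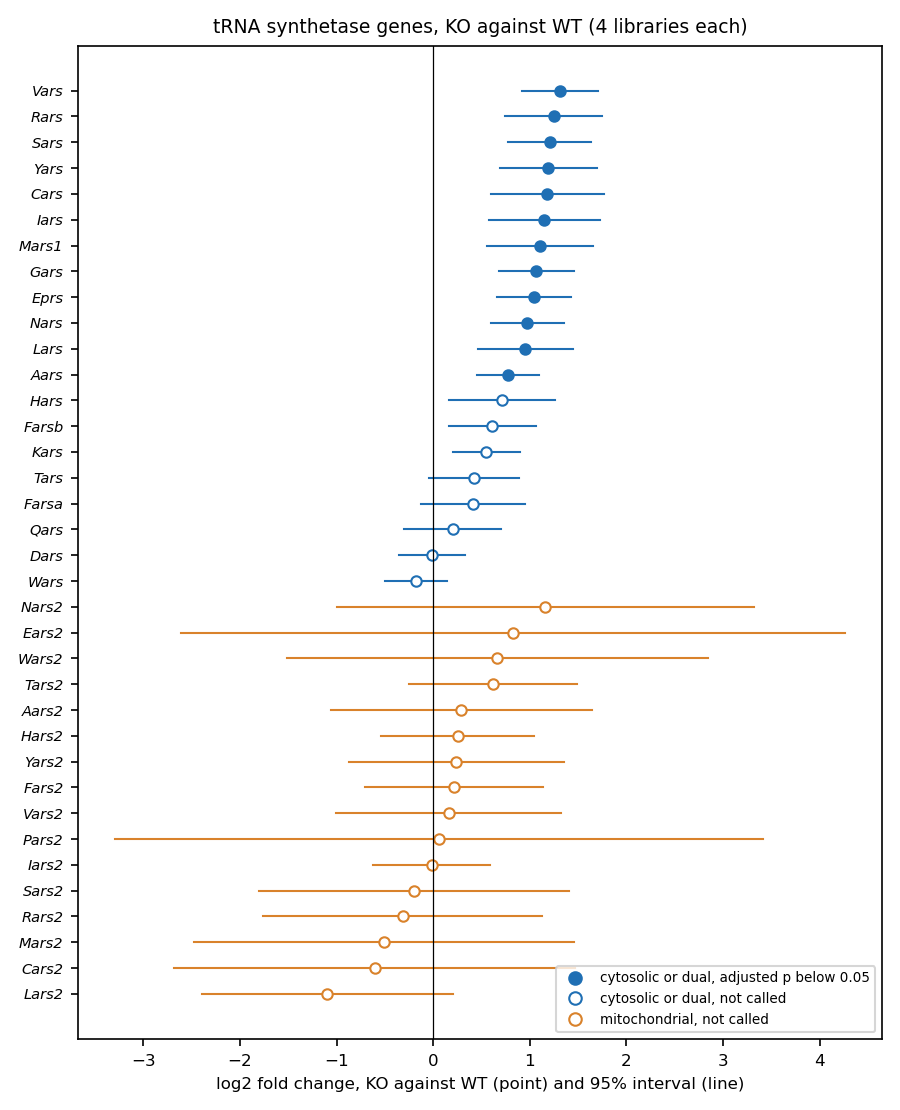
Log2 fold change of KO against WT (x axis, log2 units) for each of the 36 synthetase genes (y axis), as fitted value (point) with its 95% interval (line) over 4 libraries a group. The 12 filled points, all cytosolic or dual, run from 0.78 (Aars) to 1.31 (Vars), and the lines of the mitochondrial genes all cross 0 and are mostly wider.

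Vars (valyl-tRNA synthetase, chr17:35000987-35016322, mm10) had the smallest p of the 36 genes. Its level was 63.2, 76.3, 58.2 and 48.6 CPM in WT and 133, 162, 150 and 167 CPM in KO, in the order of replicates 1 to 4, which is kept for all genes. The groups were far apart, the lowest KO library standing at 133 CPM against 76.3 CPM in the highest WT library. The means were 61.6 ± 11.5 CPM for WT and 153 ± 15.2 CPM for KO (SD, n = 4 per group), a log2 fold change of 1.31 (SE 0.18, edgeR adjusted p = 0.000873). Sars, the seryl-tRNA synthetase (chr3:108424865-108445209), was at 122, 65.2, 131 and 100 CPM in WT and 285, 238, 240 and 203 CPM in KO. WT replicate 2 was low and KO replicate 1 high, and the groups did not overlap. Its log2 fold change was 1.21 (SE 0.20, edgeR adjusted p = 0.00286).

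Gars, which encodes the glycyl-tRNA synthetase of both compartments (chr6:55038007-55079500), was at 146, 177, 116 and 103 CPM in WT and 352, 258, 287 and 243 CPM in KO. All 4 KO libraries exceeded the highest WT library. Its log2 fold change was 1.07 (SE 0.18, edgeR adjusted p = 0.00336). Eprs encodes a fused enzyme that charges both glutamate and proline tRNAs (chr1:185363044-185428360). It was at 71.7, 107, 72.2 and 82.3 CPM in WT and 207, 168, 156 and 156 CPM in KO, again without overlap. The log2 fold change of Eprs was 1.04 (SE 0.18, edgeR adjusted p = 0.00347). Nars, the asparaginyl-tRNA synthetase (chr18:64499647-64516652), was at 88.2, 118, 86.7 and 93.5 CPM in WT and 237, 150, 195 and 176 CPM in KO. Its KO libraries were more spread than its WT libraries, and the lowest of them stood above all WT libraries. The log2 fold change of Nars was 0.98 (SE 0.18, edgeR adjusted p = 0.0049).

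Rars (arginyl-tRNA synthetase, chr11:35808381-35834506) was at 53.5, 44.0, 32.4 and 27.4 CPM in WT and 105, 85.1, 90.4 and 93.3 CPM in KO. The KO libraries lay close together and clear of WT, with a log2 fold change of 1.25 (SE 0.24, edgeR adjusted p = 0.0064). Aars, the alanyl-tRNA synthetase (chr8:111033144-111057664), had the smallest fold change of the 12 and also the smallest SE. It was at 99.1, 117, 122 and 111 CPM in WT and 179, 194, 221 and 174 CPM in KO. The groups did not overlap, and the log2 fold change was 0.78 (SE 0.15, edgeR adjusted p = 0.00779). Yars (tyrosyl-tRNA synthetase, chr4:129189760-129219607) was at 54.0, 37.5, 44.3 and 33.8 CPM in WT and 97.6, 81.7, 133 and 75.1 CPM in KO. KO replicate 3 was the highest. The log2 fold change of Yars was 1.19 (SE 0.24, edgeR adjusted p = 0.00873), and the call was lost without KO replicate 3 (adjusted p = 0.054).

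The other 4 calls were nearer to the threshold. Cars, the cysteinyl-tRNA synthetase (chr7:143557230-143600090), was at 26.5, 20.1, 19.6 and 24.3 CPM in WT and 35.8, 55.8, 67.5 and 46.6 CPM in KO. The KO libraries of Cars were spread and stood above WT, with a log2 fold change of 1.18 (SE 0.28, edgeR adjusted p = 0.0242). Mars1 (methionyl-tRNA synthetase, chr10:127296221-127311786) was at 81.6, 33.6, 40.1 and 62.1 CPM in WT and 129, 104, 139 and 96.3 CPM in KO. WT replicate 1 came nearest to KO, and the log2 fold change was 1.10 (SE 0.26, edgeR adjusted p = 0.0245). Iars, the isoleucyl-tRNA synthetase (chr13:49682100-49734267), was at 39.5, 63.1, 26.2 and 63.6 CPM in WT and 126, 85.6, 127 and 90.1 CPM in KO. Both groups were uneven and did not overlap, with a log2 fold change of 1.15 (SE 0.27, edgeR adjusted p = 0.0248). Lars (leucyl-tRNA synthetase, chr18:42202298-42262194) was at 45.7, 46.8, 31.2 and 44.3 CPM in WT and 107, 74.4, 81.3 and 63.1 CPM in KO. KO replicate 4 lay nearest to WT, and the log2 fold change was 0.95 (SE 0.23, edgeR adjusted p = 0.0305). Over 21 alternative settings, 9 of which leave out 1 or more libraries, Iars was called in 16, Mars1 in 15, Cars in 14 and Lars in 13. Among single libraries, Iars lost its call without WT replicate 1 or KO replicates 1 or 3, and Mars1 without WT replicates 2, 3 or 4 or KO replicates 1 or 3. Cars kept its call without WT replicate 1 or KO replicate 1, and Lars without WT replicate 1 or KO replicate 4, and both lost it without any other library. Over the 21 settings the highest adjusted p of these genes (edgeR) was 0.0947 for Iars, 0.126 for Cars and 0.129 for Lars and for Mars1. Aars, Eprs, Gars, Nars, Rars, Sars and Vars were called in all 21.

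**Figure D2:**
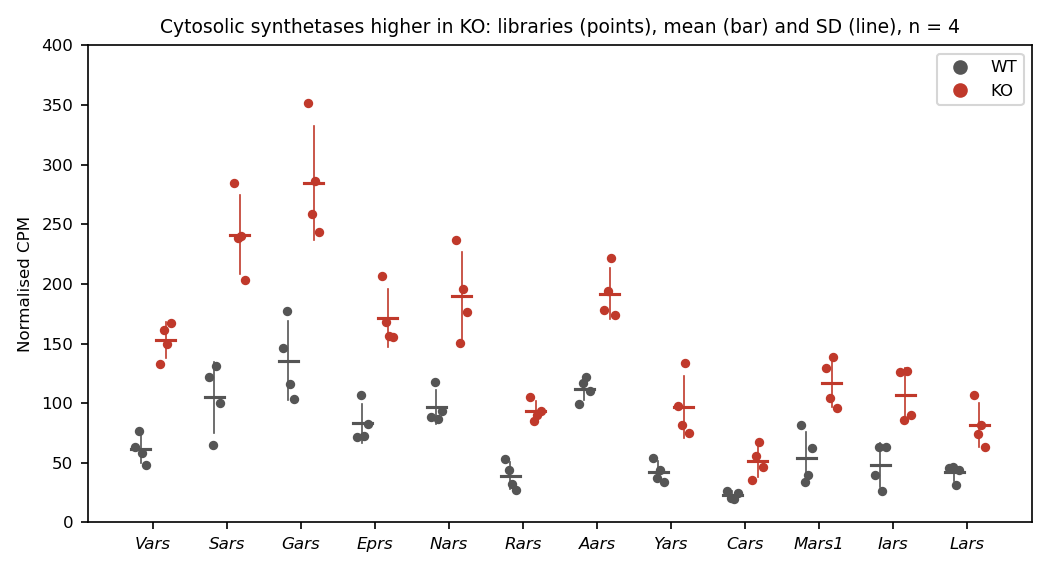
Level of the 12 cytosolic synthetase genes called higher in KO (y axis, normalised CPM, linear scale from 0), in order of p, with each library as a point, the group mean as a bar and the SD as a line (n = 4 a group). For each of the 12 genes the 4 KO points lie above the 4 WT points, as for Vars with 133 to 167 CPM against 48.6 to 76.3 CPM.

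The KO libraries did not share one order over these 12 genes. KO replicate 1 was the highest KO library for 6 genes (Eprs, Gars, Lars, Nars, Rars and Sars), KO replicate 3 for 5 (Aars, Cars, Iars, Mars1 and Yars) and KO replicate 4 for 1 (Vars). KO replicate 4 was the lowest for 7 of the 12, KO replicate 2 for 3 and KO replicate 1 for 2 (Cars and Vars). KO replicate 1 also held the least Uqcrq, and a relation of Uqcrq to the synthetase levels was not tested. A list of 10 cell-cycle genes had its highest sum in KO replicate 4, at 1451 CPM, with 430 to 676 CPM in WT and 486 CPM in KO replicate 1. All 10 cell-cycle log2 fold changes were above 0 (median 1.04), and 7 of the 10 had an unadjusted p below 0.05 (edgeR). Of the 10, 1 (Plk1) was called higher, where 2.25% of all genes tested were. The part of this list in the synthetase levels was not tested. With the summed alveolar type 2 level as a covariate, 12 of the 20 cytosolic genes were again called higher.

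Of the 8 cytosolic genes that were not called, 3 had an unadjusted p below 0.05. Kars, the lysyl-tRNA synthetase of both compartments, was at 83.7 to 104 CPM in WT and 129 to 168 CPM in KO, a log2 fold change of 0.55 (SE 0.16, edgeR adjusted p = 0.0801), and was called by DESeq2 (adjusted p = 0.0292). Its groups did not overlap. Farsb encodes the beta subunit of the phenylalanyl enzyme and was at 37.6 to 49.5 CPM in WT and 61.8 to 80.5 CPM in KO, a log2 fold change of 0.61 (edgeR adjusted p = 0.142). Farsa, the alpha subunit of the same enzyme, was at 31.8 to 58.7 CPM in WT and 48.7 to 59.7 CPM in KO, a log2 fold change of 0.41 (edgeR adjusted p = 0.516). The groups overlapped for Farsa and not for Farsb, and whether the subunits differ was not tested. Hars, the histidyl enzyme, had a log2 fold change of 0.72 (SE 0.26, edgeR adjusted p = 0.162), with WT at 23.6 to 43.3 CPM and KO at 42.2 to 65.6 CPM.

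The groups overlapped for each of the remaining 4. Tars, for threonine, was at 42.0 to 71.7 CPM in WT and 69.2 to 87.7 CPM in KO, a log2 fold change of 0.42 (edgeR adjusted p = 0.405). Qars, for glutamine, had a log2 fold change of 0.20 (95% interval -0.30 to 0.70). Dars, for aspartate, was even across the 8 libraries, at 104 to 115 CPM in WT and 96.2 to 123 CPM in KO. Its log2 fold change was -0.01 (95% interval -0.36 to 0.33), an interval that ends below the median of the 20 cytosolic genes. The intervals of Farsa, Kars, Qars, Tars and Wars also ended below that median, and those of Farsb and Hars did not. Wars, the tryptophanyl enzyme and a known interferon-induced gene, was at 158 to 188 CPM in WT and 131 to 178 CPM in KO, a log2 fold change of -0.18 (95% interval -0.50 to 0.15). The summed level of these 8 genes was 566 to 661 CPM in WT and 710 to 786 CPM in KO.

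Cytosolic synthetases differ in their partners and in the fold of their catalytic domain. In mammals 8 of the cytosolic genes studied encode enzymes held in the multisynthetase complex, a grouping applied here after the values had been seen. Of these, 5 were called higher (Eprs, Iars, Lars, Mars1 and Rars) and 3 were not (Dars, Kars and Qars), with a median log2 fold change of 1.00. Outside the complex 7 of 12 were called, with a median of 0.88. Class I enzymes, defined by a Rossmann-fold catalytic domain, had 7 of 9 genes called (median 1.15). Class II enzymes had 4 of 10 called (median 0.67), and Eprs carries a domain of each class. Calls thus fell in every one of these groups, and differences between the groups were not tested.

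The promoters of the cytosolic genes were searched for TGATGNAA, the core of the C/EBP-ATF response element, in both orientations (TTNCATCA on the other strand). Sequences were taken from RefSeq (GRCm38.p6), with 250 bases before and 50 bases from each start. Promoters of 27 of the 36 genes were searched. The motif was present in 4 of the 7 promoters of called cytosolic genes, in 1 of the 6 promoters of cytosolic genes not called (Tars) and in 0 of the 15 mitochondrial promoters. Of all 32851 promoters of the same length, 3.97% held it. Among the called genes, Cars, Lars, Nars, Rars and Vars were not searched, and Eprs, Mars1 and Sars had no match in this window. A stretch that holds a match is shown for each of the 4 called genes, 5′ to 3′ on the gene's strand, all on the plus strand, with the matches in capitals. Gars is shown over 160 bases, and Aars, Iars and Yars over 30 bases around the match, since these lie within exons annotated by GENCODE.
Gars, chr6:55037871-55038030: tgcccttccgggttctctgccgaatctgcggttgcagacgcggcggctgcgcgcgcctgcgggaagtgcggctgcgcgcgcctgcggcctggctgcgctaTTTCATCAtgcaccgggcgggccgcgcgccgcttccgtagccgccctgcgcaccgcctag
Aars, chr8:111033840-111033869: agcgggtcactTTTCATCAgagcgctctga
Iars, chr13:49682126-49682155: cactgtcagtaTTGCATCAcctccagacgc
Yars, chr4:129189895-129189924: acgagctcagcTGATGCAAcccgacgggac
The match in Gars began 30 bases before the RefSeq start, and the match shown for Aars began 9 bases after it. The match in Iars began 7 bases after the start, and that in Yars 3 bases after it. Of the 4 matches shown, that in Yars read TGATGNAA on the gene's own strand, and the other 3 were in the reverse orientation. These matches describe letters in the windows and show no binding. The transcript of Atf4 itself had means of 263 ± 57.1 CPM for WT and 308 ± 44.0 CPM for KO (SD, n = 4 per group), with a log2 fold change of 0.23 (edgeR adjusted p = 0.612). The amount and activity of the ATF4 protein were not measured.

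The mitochondrial synthetases were low in these libraries and varied between replicates. Without Lars2, described separately, their mean levels ran from 4.33 to 59.0 CPM. Their median SE of the log2 fold change was 0.68, beside 0.22 for the cytosolic genes and 0.36 for all genes tested. In 4 of them at least 1 library was at 0. Among the 7177 genes in their range of mean CPM, 0.683% were called higher. All 16 intervals of 95% for the log2 fold change held 0, and 14 of the 16 also held 0.96, the median of the cytosolic genes. For most mitochondrial genes a change of the cytosolic size was thus not detectable at this depth and spread. The 2 whose intervals lay below 0.96 were Iars2 and Lars2.

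Iars2, the mitochondrial isoleucyl enzyme, was the best measured of the mitochondrial set. It was at 81.3, 64.5, 39.2 and 52.4 CPM in WT and 32.1, 58.4, 74.0 and 70.3 CPM in KO. The groups overlapped throughout, with a log2 fold change of -0.02 (95% interval -0.62 to 0.59). Iars2 lies on the same chromosome as Eprs, on the opposite strand, at chr1:185284726-185329396. Vars2 (valine) was at 12.0, 15.4, 24.1 and 6.59 CPM in WT and 4.59, 22.8, 14.7 and 22.6 CPM in KO, a log2 fold change of 0.16 (SE 0.55). Sars2 (serine) was at 10.3, 4.49, 8.82 and 8.89 CPM in WT and 6.56, 5.32, 7.75 and 8.62 CPM in KO, a log2 fold change of -0.20 (SE 0.76). Both overlapped between groups.

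Aars2 (alanine) was at 14.7, 27.4, 12.3 and 1.40 CPM in WT and 21.2, 11.8, 11.2 and 24.2 CPM in KO. Its WT libraries were so uneven that the log2 fold change of 0.29 had an SE of 0.64. Rars2 (arginine) was at 44.4, 10.4, 3.44 and 5.02 CPM in WT and 11.2, 18.3, 10.4 and 10.9 CPM in KO. WT replicate 1 stood far above the rest, and the log2 fold change moved from -0.32 to 1.02 without it. Yars2 (tyrosine) was at 9.87, 8.80, 23.6 and 7.74 CPM in WT and 8.24, 19.0, 13.3 and 18.4 CPM in KO, a log2 fold change of 0.24 (SE 0.53). Mars2 (methionine) was at 23.6, 4.05, 0.149 and 16.4 CPM in WT and 7.96, 6.81, 6.65 and 9.70 CPM in KO. The WT libraries of Mars2 spanned the whole KO range. Cars2 (cysteine) was likewise wider in WT, at 1.42, 15.2, 5.23 and 7.57 CPM against 4.96, 4.93, 5.46 and 3.98 CPM in KO.

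Nars2, for asparagine, had the highest fitted log2 fold change of the mitochondrial genes, 1.16, with a 95% interval of -0.99 to 3.32. It was at 14.1, 5.43, 3.74 and 0 CPM in WT and 20.3, 11.4, 6.88 and 13.7 CPM in KO. WT replicate 1 overlapped KO. Ears2 and Pars2 charge the mitochondrial tRNAs for glutamate and proline, the amino acids that Eprs serves in the cytosol. Ears2 was at 2.68, 9.75, 0 and 0 CPM in WT and 7.87, 2.90, 10.1 and 1.30 CPM in KO. Pars2 was at 6.61, 0.949, 0 and 10.6 CPM in WT and 0, 5.87, 2.61 and 10.5 CPM in KO. Both were too low to place, with SE of 1.62 and 1.58. Of the other 4, Tars2 had a log2 fold change of 0.62 (SE 0.41), Wars2 of 0.66 (SE 1.03), Hars2 of 0.25 (SE 0.37) and Fars2 of 0.22 (SE 0.44), and all 4 overlapped between groups. Hars and Hars2 lie head to head on chr18 with overlapping annotated ends, and reads there cannot be told apart because the strand setting of the counting is not given.

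Lars2 (ENSMUSG00000035202, chr9:123366927-123462666), the mitochondrial leucyl enzyme, stood apart from every other synthetase gene in level. It was at 3360, 851, 2812 and 5671 CPM in WT and 1090, 1935, 1162 and 1757 CPM in KO. WT replicate 4 was 6.67-fold above WT replicate 2, the lowest of all libraries, and the highest level of any other mitochondrial gene in a library was 81.3 CPM. Lars2 made up 78.1% to 97.4% of the summed CPM of the 16 genes. Its log2 fold change was -1.09 (SE 0.54, edgeR adjusted p = 0.439), the lowest of the 36. Without WT replicate 2 it was called lower (adjusted p = 0.0363).

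The counts of Lars2 moved with those of Gm42418 (ENSMUSG00000098178, chr17:39846958-39848788), which RefSeq lists under Rn18s-rs5, a ribosomal RNA-related pseudogene. Lars2 counts were 40175, 9863, 18809 and 68886 in WT and 11641, 24720, 14689 and 24273 in KO. Gm42418 counts were 74490, 18516, 37411 and 139881 in WT and 20868, 36257, 29505 and 45384 in KO. The ratio of Lars2 to Gm42418 stayed between 0.492 and 0.682, a 1.38-fold range, while Lars2 itself ranged 6.67-fold in CPM. The log2 fold change of Gm42418 was -1.26 (edgeR adjusted p = 0.351). Its part in the value of Lars2 was not tested.

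**Figure D3:**
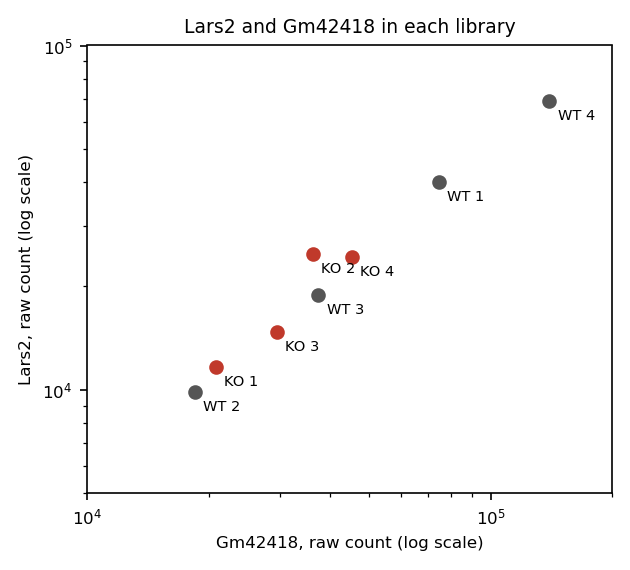
Raw read counts of Lars2 (y axis) against Gm42418 (x axis) in the 8 libraries, both on log scales, with WT in grey and KO in red. The points follow one line, from WT replicate 2 (9863 and 18516) to WT replicate 4 (68886 and 139881), and both groups lie along it.

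Summed over each set, the cytosolic genes separated the groups and the mitochondrial genes did not. The 20 cytosolic genes summed to 1553, 1558, 1346 and 1447 CPM in WT and 2748, 2368, 2631 and 2370 CPM in KO. The 15 mitochondrial genes without Lars2 summed to 295, 238, 171 and 154 CPM in WT and 198, 242, 241 and 281 CPM in KO. The WT libraries of the mitochondrial sum contained the whole range of the KO libraries. The ratio of the cytosolic to this mitochondrial sum was 5.26, 6.55, 7.87 and 9.40 in WT and 13.9, 9.80, 10.9 and 8.44 in KO. KO replicate 4 overlapped WT in this ratio. With Lars2 included, the mitochondrial sum was 1089 to 5825 CPM in WT and 1289 to 2177 CPM in KO.

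**Figure D4:**
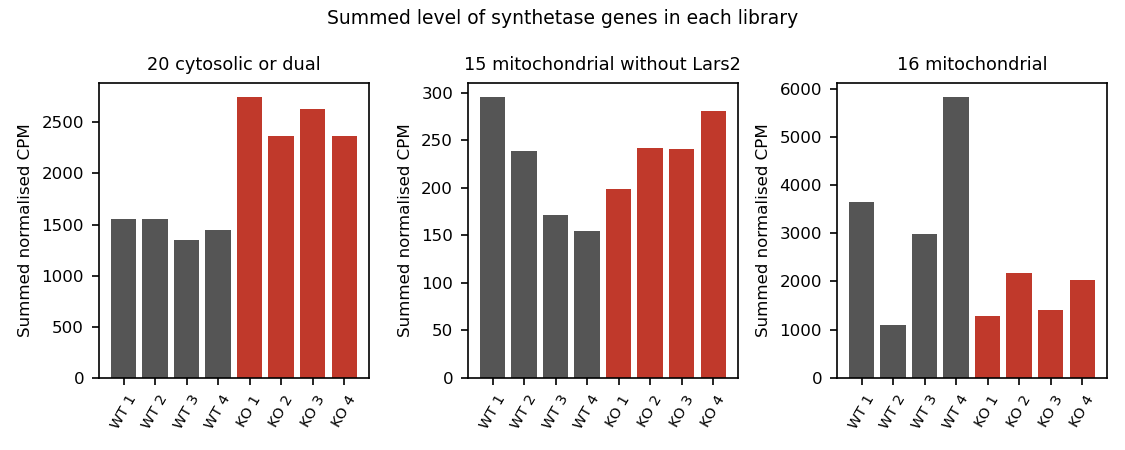
Summed normalised CPM in each of the 8 libraries (bars from 0, WT grey and KO red), for the 20 cytosolic or dual genes, the 15 mitochondrial genes without Lars2 and all 16 mitochondrial genes, each on its own y axis. The cytosolic sums are 1346 to 1558 CPM in WT and 2368 to 2748 CPM in KO, while both mitochondrial sums overlap between groups.

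A call in one compartment and none in the other does not show that they differ, and the ratio of each cytosolic gene to its mitochondrial partner was therefore compared within libraries. There were 15 such pairs, with Farsa and Farsb each set against Fars2. The difference of the log2 ratio between KO and WT was above 0 in 11 pairs and below 0 in 4, with a median of 0.47. With 1 library left out the median ran from 0.33 to 0.85, the highest without WT replicate 4. For Sars and Sars2 the log2 ratio was 3.55, 3.81, 3.87 and 3.47 in WT and 5.40, 5.44, 4.92 and 4.53 in KO, a difference of 1.40. For Iars and Iars2 it was -1.04, -0.03, -0.58 and 0.28 in WT and 1.97, 0.55, 0.77 and 0.36 in KO, a difference of 1.25. In both pairs all KO ratios exceeded all WT ratios, and the exact two-sided permutation p was 0.0286, the smallest that 4 against 4 libraries allow. Adjusted over the 15 pairs by Benjamini-Hochberg, the exact permutation p of both was 0.214, and 0 pairs passed. Because no exact permutation p can fall below 0.0286, a few separated pairs cannot pass this adjustment, however large their differences. The 0 thus does not show that the compartments changed alike.

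The ratio of Vars to Vars2 differed by 1.26 (exact two-sided permutation p = 0.0571, adjusted 0.286), with 3 of the 4 KO libraries above all WT libraries. That of Lars to Lars2 differed by 1.79, the most of the 15 (exact two-sided permutation p = 0.0857, adjusted 0.321), and carries the uneven level of Lars2. At the other end, Wars to Wars2 differed by -2.20 (exact two-sided permutation p = 0.286), where Wars2 was at 0 in WT replicate 3. Nars, called higher in KO, had a ratio to Nars2 that differed by -1.22 (exact two-sided permutation p = 0.629), with Nars2 at 0 in WT replicate 4. Aars rose in KO, but its ratio to Aars2 differed by -0.01 (exact two-sided permutation p = 1), with WT ratios from 2.08 to 6.14.

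**Figure D5:**
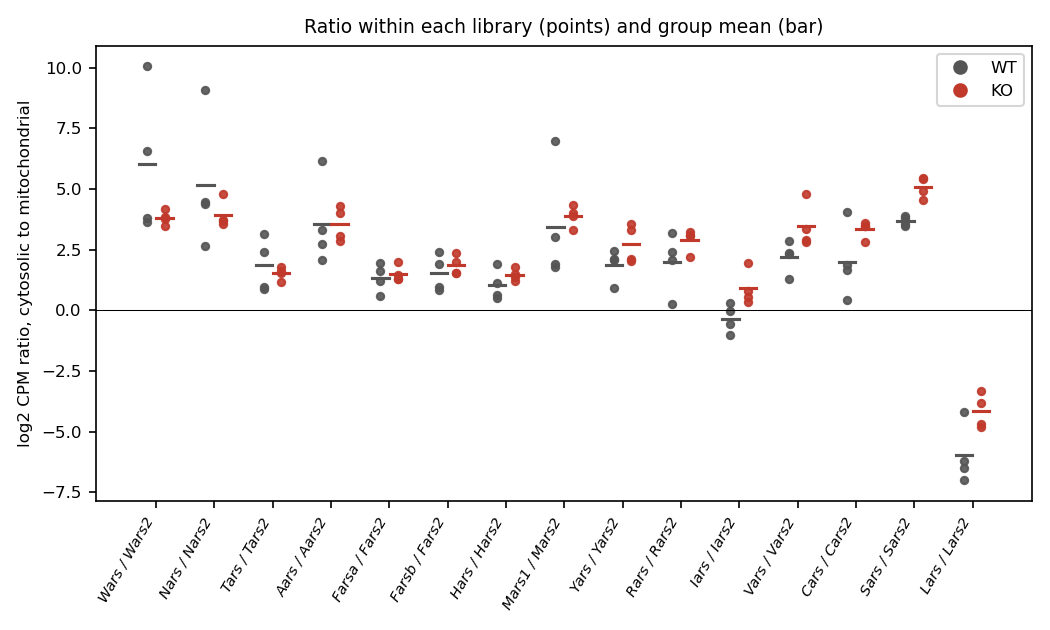
Log2 ratio of normalised CPM of each cytosolic gene to its mitochondrial partner (y axis, log2 units with a prior count of 2) for the 15 pairs (x axis), with each library as a point and the group mean as a bar, ordered by the difference of KO and WT from -2.20 (Wars and Wars2) to 1.79 (Lars and Lars2). The KO points clear all WT points for Sars and Sars2 and for Iars and Iars2, and the highest WT points, above 9, belong to libraries in which the mitochondrial gene was at 0.

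Levels between genes were compared as CPM per kilobase of the longest protein-coding transcript, which takes no account of which transcript the cells used. Lars2 was first in both groups, at 815 in WT and 382 in KO. After it in WT came Wars at 61.2 ± 5.36, Gars at 57.0 ± 13.9, Dars at 50.1 ± 2.52 and Kars at 44.8 ± 4.41 CPM per kilobase (SD, n = 4), and Gars differed from Wars and from Dars by less than its own SD. In KO the order was Gars at 120 ± 20.1, Nars at 69.2 ± 13.3, Sars at 67.6 ± 9.36 and Kars at 65.6 ± 7.97 CPM per kilobase. Wars and Dars came behind these in KO, at 54.1 and 49.7 CPM per kilobase. The cytosolic median in WT was 19.1 CPM per kilobase, beside 4.17 for the mitochondrial genes without Lars2. Iars2 at 10.8 CPM per kilobase in WT was level with its cytosolic partner Iars at 10.9, and the lowest of all was Mars2 at 0.978.

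Genes of the steps around tRNA charging were taken from 9 lists with 58 genes, of which 56 were tested. None was called by edgeR, where 3.63% of all genes tested were, and 3 had an unadjusted p below 0.05. In lists of this size 0 calls lie near that share. The median log2 fold change of the 56 was 0.20, and 38 were above 0. Aimp1, a scaffold of the multisynthetase complex, was at 28.8 ± 8.64 CPM in WT and 47.8 ± 18.5 CPM in KO, a log2 fold change of 0.74 (edgeR adjusted p = 0.300). Eef1e1, another component of that complex, had a log2 fold change of 1.27 with an SE of 0.91. Aimp2, also listed for that complex, went the other way, with a log2 fold change of -0.50 (SE 0.49). Xpot, which exports tRNA from the nucleus, had a log2 fold change of 0.39 (edgeR adjusted p = 0.327). Ddx1, a helicase of the tRNA ligase complex, had one of 0.42 (edgeR adjusted p = 0.277).

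RNA polymerase III transcribes tRNA genes. Of its 14 tested subunits and factors 0 were called, near the share of 3.63% over all genes, with a median log2 fold change of -0.01. Polr3e, a subunit, had a log2 fold change of 0.55 (edgeR adjusted p = 0.441), and Maf1, its repressor, one of -0.33 (edgeR adjusted p = 0.597). Of 16 genes for processing and modifying mitochondrial tRNA 0 were called (median 0.15), again near that share. Among them Trit1 was at -1.13 (SE 0.82) and Cdk5rap1 at -0.90 (SE 0.61). Gatb and Qrsl1, subunits of the enzyme that makes mitochondrial Gln-tRNA, were at 0.80 (SE 0.79) and 0.77 (SE 0.88). Tarsl2, a synthetase gene outside the 36, was at 0.81 (SE 0.60). Pstk and Sepsecs, which build selenocysteine on its tRNA, were at 1.21 (SE 1.04) and 0.21 (SE 0.44). The editing genes Dtd1 and Prorsd1 were at -0.47 (SE 0.83) and 0.46 (SE 1.01). Eif2ak4, the kinase GCN2 that senses uncharged tRNA, was at 1.08 (SE 0.96). Aarsd1 and Polr3g were filtered out for low counts, with 0 CPM in every WT library.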

How the data were processed

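RNA-seq of CD31-sorted lung endothelial cells was used, 4 WT and 4 KO libraries grouped by their labels. The deposited table gives raw counts by gene for each library. The submitters' processing notes name bcl2fastq, TopHat, HTSeq, edgeR and mm10, without versions. The sources used here state neither the annotation release nor the strand setting. Symbols came from GENCODE M21 (GRCm38) for 42546 of 43430 IDs. Libraries of a group differed by more than counting error (chi-square over its degrees of freedom at least 32.4).

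TMM scaling was used, and filterByExpr (minimum count 10, total 15) left 12689 genes. The genotypes were compared with edgeR 4.0.16's quasi-likelihood test (R 4.3.3), robust, genotype only, Benjamini-Hochberg threshold 0.05. SE come from the F statistic. Pair ratios used log2 CPM with a prior count of 2. In a test on simulated data (11988 genes) 17.3% of 2-fold and 59.1% of 4-fold changes were called, with 5.26% false calls. The alternatives were other scalings and filters, DESeq2 1.42.0, limma 3.58.1 voom, a replicate block, a length and GC correction, the alveolar type 2 covariate and leaving out libraries.

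The members and lists were chosen with earlier results of these data known. Per-library values are given for called genes, their partners and the largest fall, and up to 2 genes per related list by smallest p. Aimp2 was added to these. The multisynthetase grouping was added after the values were seen. Protein sequences are not used here, and 1 gene of the related lists and 1 promoter stretch are not reported here.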

Additional observations from a re-analysis of the deposited data

Results flagged for a closer look

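In 72 groups of 4 libraries (36 genes in WT and in KO), 4 held a library whose gap to its nearest neighbour took up more of the group's range than Dixon's 95% critical value allows. Chance alone flags about 1 in 20 groups. Lars in WT replicate 3, at 31.2 CPM, was the lowest of its group, in the library with the lowest total count. Rars2 was flagged in both groups, at 44.4 CPM in WT replicate 1 and at 18.3 CPM in KO replicate 2, each the highest of its group. Yars2 in WT replicate 3, at 23.6 CPM, was the highest of its group.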

How the results depend on the processing

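The count of cytosolic genes called higher stayed at 12 under other scalings, filters, limma voom, legacy = FALSE in edgeR, the length and GC correction and the alveolar type 2 covariate, and was 13 with DESeq2. Leaving out 1 library gave 7 to 11, the lowest without KO replicate 3. Without WT replicate 3 and KO replicate 1 together, an alternative added after seeing the data, it was 9. Replicate numbers did not pair the samples (correlations of -0.10 to 0.004); with the replicate number as a block the count was 9, without Cars, Iars and Lars, and all genes gave 215 higher and 123 lower. No mitochondrial gene was called higher under any of the 21 alternatives, and 0 to 1 were called lower when 1 library was left out (Lars2, without WT replicate 2). Over all genes DESeq2 called 862 and edgeR with legacy = FALSE 746, against 461. The number of pairs with an exact permutation p below 0.05 was 2 with a prior count of 0.5 and with the length and GC correction, and 3 with a prior count of 5; the median pair difference was 0.33 to 0.85 with 1 library left out. Pair tests with 7 libraries or with the block could not pass, their smallest exact permutation p being 0.0571 and 0.125. Of single genes, 9 that were not called changed sign, and the cause was not tested. With 1 library, or WT replicate 3 and KO replicate 1, left out the log2 fold change ran from -0.093 to 0.041 for Dars, -0.086 to 0.86 for Aars2, -0.95 to 0.030 for Cars2, -0.0025 to 0.49 for Fars2, -0.17 to 0.19 for Iars2, -0.92 to 0.18 for Mars2, -0.70 to 0.91 for Pars2, -0.64 to 1.02 for Rars2 and -0.079 to 0.83 for Vars2. With voom it was 0.35 for Mars2, -0.043 for Pars2 and 0.14 for Rars2, and with sample weights added 0.0015 for Cars2, 0.063 for Iars2 and 0.13 for Rars2. With the block it was 0.43 for Mars2 and 0.47 for Rars2, and with the alveolar type 2 covariate 0.037 for Iars2, 0.20 for Mars2 and 0.083 for Rars2. Pars2 was at -0.025 with legacy = FALSE, and Iars2 at 0.026 with the length and GC correction and 0.036 without WT replicate 3 and KO replicate 1. Of the 16 mitochondrial genes, 4 held a library at 0.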
